A study of Mus musculus with 19 samples.

Results

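The homeostatic microglia genes are 30 genes that resting microglia of the adult brain and spinal cord are known to use, chosen by symbol from the Ensembl identifiers of the tables, and all 30 were found, each once, among 55487 genes. Their RNA was measured by sequencing in mouse spinal cord and in cultured motor neurons. Snap-frozen cords gave 9 libraries with the genotype miR-146a KO and 4 labelled WT. Motor neurons made from the wild-type mouse embryonic stem cell line RW.4 with retinoic acid and the Smoothened agonist SAG gave 3 libraries after 10 nM miR-146a LNA and 3 after 10 nM control LNA, both carried in with Lipofectamine 2000 for 72 h. An LNA (locked nucleic acid) is a short modified oligonucleotide that pairs with a microRNA and so blocks it. The labels name no strain, sex, age, litter or allele of the knockout, and they leave unsaid whether each library is its own animal or dish. Every p-value here thus rests on library-to-library spread, which may be partly technical. All cultures come from 1 stem cell line, and no step of their making is known to add microglia.

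Microglia are the resident macrophages of the central nervous system and arise from yolk sac precursors. In healthy tissue they depend on the receptor Csf1r and on TGF-beta, and survey their surroundings with nucleotide receptors such as P2ry12. They also carry a set of genes, among them Tmem119, Siglech and Sall1, that few other macrophages share. In injury or degeneration this set is known to fall in single microglia while genes of activated microglia come up. miR-146a restrains innate immune signalling in myeloid cells, and its loss in mice is known for myeloid expansion with age. By background knowledge, and with earlier results of these data known, the members were divided into 3 classes. These are 13 that are enriched in microglia, 14 that other leukocytes also use, and 3 that other neural cells also make (Itgb5, Rnase4 and Cst3). The classes are not exclusive. Other leukocytes can also make some of the 13, Selplg, Cx3cr1, Siglech and Ltc4s among them, so the classes do not separate microglia from other leukocytes.

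The microRNA that is lost or blocked lies on the minus strand of chromosome 11 (43374435 to 43374456, RefSeq, GRCm38.p6). Its mature sequence is shown with the seed, bases 2 to 8, in capitals, because the seed decides which letters a target must hold.
mmu-miR-146a-5p: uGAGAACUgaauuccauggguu
The matching letters AGTTCTC stood in the longest annotated 3′ UTR of 6 of the 30 members (20%), against 2345 of 20996 genes (11.17%). Per kilobase the members held 0.1715 matches, against 0.0871 over all genes. The 6 are Csf1r, Siglech, Slc2a5, Inpp5d, Runx1 and Olfml3, with 1 match each and none followed by an A. A match is a run of letters, not a shown site. The windows of 5 of them are printed with the match in capitals, in the sense of the transcript, since the values of these genes are compared further on.
Siglech, chromosome 7: gctttgacttAGTTCTCctg
Slc2a5, chromosome 4: aagacatagcAGTTCTCtac
Inpp5d, chromosome 1: ccaagggctgAGTTCTCcag
Runx1, chromosome 16: cagaaaatgcAGTTCTCcag
Olfml3, chromosome 3: ctctgatcagAGTTCTCgtg
In the cords the members with a match had log2 fold changes, KO over WT, of 0.20 for Siglech, 0.07 for Slc2a5, 0.97 for Csf1r, 1.06 for Olfml3, 1.2 for Inpp5d and 1.97 for Runx1.

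Spi1 encodes PU.1, the transcription factor that myeloid cells depend on. Its core letters GAGGAAGT were searched on both strands of RefSeq promoters (250 bases before to 50 after a gene's start, GRCm38.p6). They occurred in 2 of the 24 members with a promoter in the table (8.33%), against 997 of 27025 genes (3.69%). Csf1r and Spi1 are among the members without a promoter there. A gene can have more than 1 promoter window, with 32 over these members and 32851 over all genes. The difference in share was not tested, and a match is a run of letters, not a shown site. The 2 members with a match are Ctss and Inpp5d, both leukocyte-shared, and their promoters are printed with the match in capitals. Ctss holds it on the reverse strand, so that it reads ACTTCCTC.
Ctss, chr3:95526536-95526835, plus strand: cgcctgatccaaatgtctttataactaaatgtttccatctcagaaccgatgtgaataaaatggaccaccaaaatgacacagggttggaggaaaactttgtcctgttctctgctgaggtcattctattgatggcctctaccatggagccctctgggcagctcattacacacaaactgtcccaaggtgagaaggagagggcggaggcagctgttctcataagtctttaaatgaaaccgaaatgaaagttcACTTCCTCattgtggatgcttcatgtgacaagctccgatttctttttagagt
Inpp5d, chr1:87620062-87620361, plus strand: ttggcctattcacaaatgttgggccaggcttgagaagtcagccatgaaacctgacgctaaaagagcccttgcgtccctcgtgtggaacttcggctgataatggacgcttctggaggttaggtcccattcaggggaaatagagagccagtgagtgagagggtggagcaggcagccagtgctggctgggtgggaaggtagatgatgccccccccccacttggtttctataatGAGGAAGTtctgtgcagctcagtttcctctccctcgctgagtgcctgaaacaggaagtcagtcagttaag

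Total counts ran from 28163289 to 39577247 in the 13 cord libraries and from 40647549 to 65471742 in the 6 cultures. 2 KO libraries stood apart. The library labelled KO replicate 9 had 13.6 CPM of Pttg1, a neighbour of the miR-146a gene on chromosome 11, where the other KO libraries had 1.06 to 1.81 and WT libraries 14.8 to 17.4, and it had 2031 CPM of Sod1, against 181.6 to 264.2 in the other KO libraries. KO replicate 7 held 2436 CPM of Acta1 and 1092 CPM of Col1a1, genes of skeletal muscle and of connective tissue. The mature microRNA was not measured by these libraries, so the genotype labels have no direct check here. Median fold changes and counts at an unadjusted p under 0.05 for the members, their classes and the marker lists are given over all 9 KO libraries and without these 2, while values of single genes are over all 9 unless stated.

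The label of the gene set was checked against the materials. Every member had counts in both cord groups. Summed over the 30, the members reached 1196.1 to 3166.6 normalised CPM (counts scaled to library size by TMM) in KO cords and 1305.7 to 1492.5 in WT cords, against 209.2 to 235.6 in miR-146a LNA cultures and 209.1 to 220.1 in control LNA cultures. Cst3 and Rnase4 made up most of the culture sum. In the cords, the 3 members that other neural cells also make summed to 677.4 to 1090.4 in KO and 798.3 to 903.3 in WT. The sum over the 30 is thus not a measure of microglia alone. In both culture groups, 22 members were below 1 normalised CPM and 16 below 0.2.

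Per length, in TPM (transcript abundance corrected for length), the highest cord level was that of Cst3, a secreted inhibitor of cathepsins, at 1823.9 ± 202.2 TPM in KO cords (SD, n = 9) and 1808.0 ± 83.8 TPM in WT cords (SD, n = 4). Ctss, the lysosomal protease cathepsin S, followed with 442.5 ± 264.9 TPM in KO and 162.1 ± 8.73 TPM in WT. Csf1r had 124.1 ± 62.0 TPM in KO cords and 61.3 ± 5.05 TPM in WT cords. P2ry12 had 18.9 ± 4.34 TPM in KO and 17.2 ± 3.13 TPM in WT, a difference inside the spread of either group. Ptprc had 3.89 ± 4.18 TPM in KO cords and 0.728 ± 0.0818 TPM in WT cords. Runx1 had 2.96 ± 2.42 TPM in KO cords and 0.728 ± 0.0492 TPM in WT cords, and these 2 had the lowest WT means of the members.

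**Figure D1:**
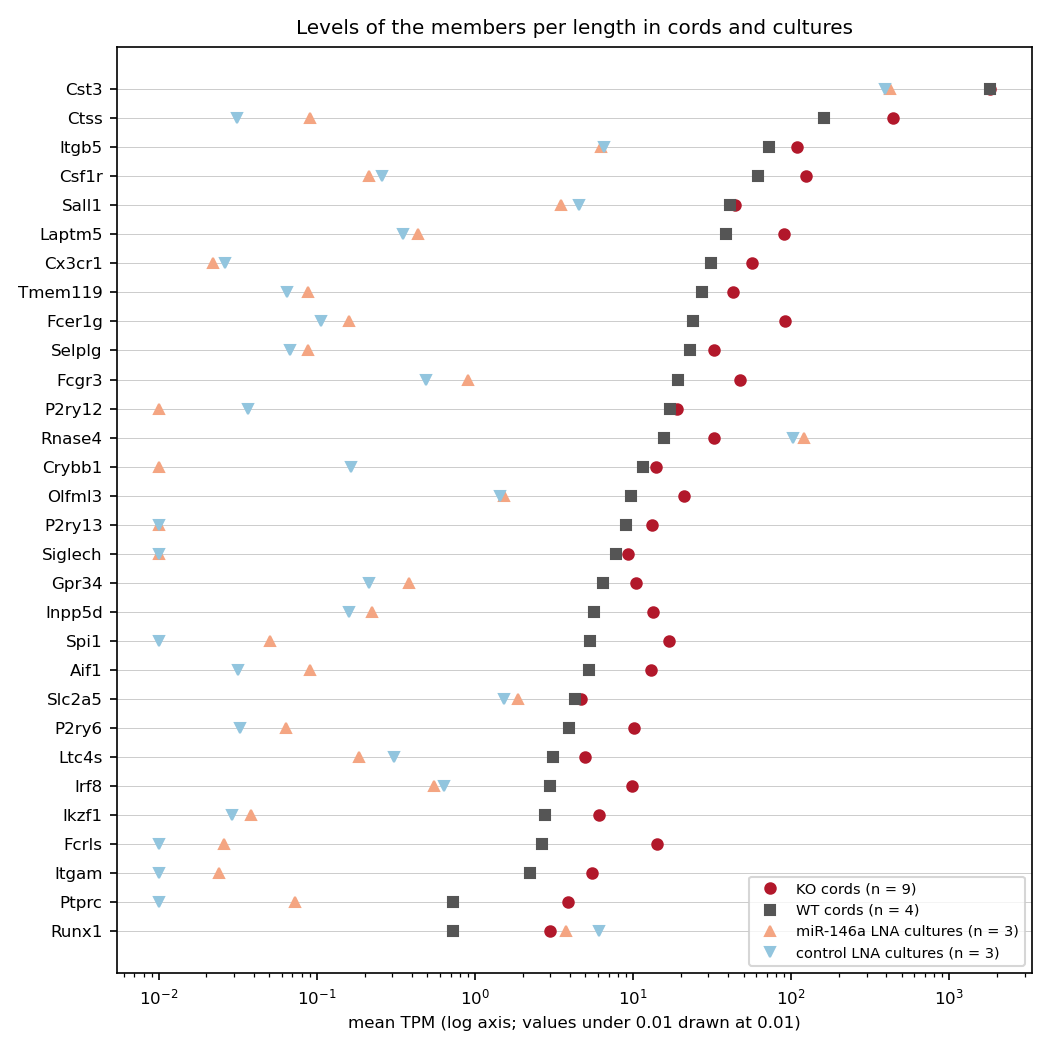
Mean TPM (horizontal log axis, values under 0.01 drawn at 0.01) of each member in KO cords (circles), WT cords (squares), miR-146a LNA cultures (upward triangles) and control LNA cultures (downward triangles), ordered by the WT cord level. Most members lie far to the left in cultures, while Runx1 and Rnase4 have their culture symbols to the right of their cord symbols.

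Most members were higher in KO than in WT cords, but unevenly. Of the 30, 29 had a positive log2 fold change, where 53.1% of 22174 tested genes did, and the median over the members was 1.03, against 0.02 over all tested genes. Without adjustment, 19 members were higher at p under 0.05 by edgeR, and none was lower, where 7.53% of all tested genes were higher at that level. After Benjamini-Hochberg adjustment over all genes edgeR called 0 members and 0 genes (0.0%), with 3177 genes at an unadjusted p under 0.05, and the smallest adjusted p of a member was 0.292. DESeq2 called 381 genes (1.72%), of which 310 were higher (1.4%), and among them were the 4 members Irf8 (adjusted p = 0.0239), Ptprc (0.0256), Runx1 (0.0282) and Rnase4 (0.0474). In bulk tissue, more or fewer cells of a type and more or less RNA per cell cannot be told apart.

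The 14 members that other leukocytes also use had log2 fold changes of 0.97 to 2.36 with a median of 1.29. All 14 were higher at an unadjusted p under 0.05, where 7.53% of tested genes were. The 13 microglia-enriched members had fold changes of 0.06 to 2.33 with a median of 0.49, and 4 of them, Gpr34, Cx3cr1, Fcrls and Olfml3, were at that level. Without KO replicates 7 and 9 the leukocyte-shared members had a median of 1.18 with 13 at that level, and the microglia-enriched members 0.47 with 1 at that level, Gpr34. The count of microglia-enriched members rested on single libraries. It was 1 without KO replicate 1 and 0 without KO replicate 4, 6 or 7. It was 3 without KO replicate 3 or 8, 5 without KO replicate 5 or the library labelled KO replicate 9, and 6 without KO replicate 2. The count was 0 without WT replicate 1 or 3, and 1 without WT replicate 2 or 4. That of the leukocyte-shared members was 12 to 14 on leaving out 1 KO library and 7 to 9 on leaving out 1 WT library. Among the 3 members that other neural cells also make, the median was 0.54, and Rnase4 alone was at that level. The difference between these classes was not tested, since the classes were drawn up with earlier results known. Sall1, Olfml3 and Slc2a5 of the microglia-enriched class had at least 1 normalised CPM in a culture group. So had Runx1 and Irf8 of the leukocyte-shared class, so the class names do not exclude other sources of RNA.

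**Figure D2:**
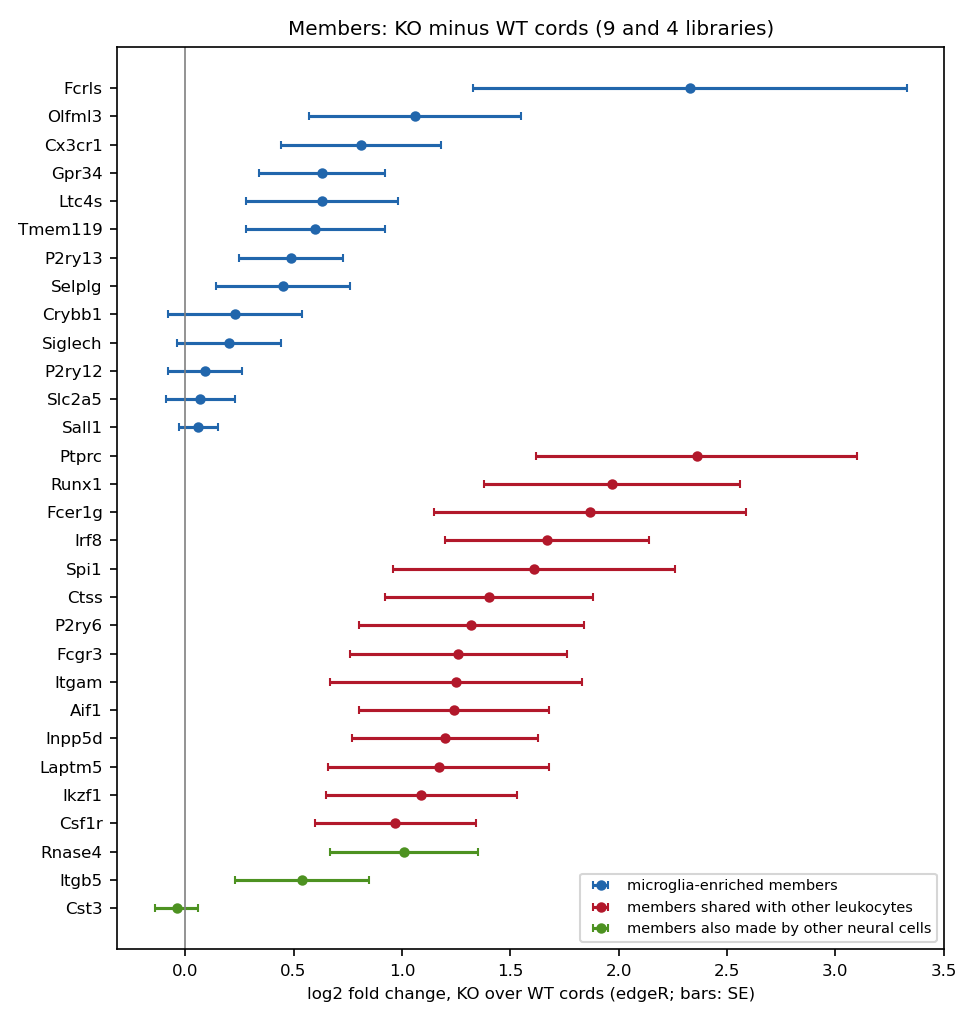
Log2 fold change of each member, KO over WT cords (9 and 4 libraries), from edgeR, with bars of 1 SE; colours mark the 3 classes. The leukocyte-shared members lie between 0.97 and 2.36, and P2ry12, Slc2a5, Sall1 and Cst3 lie within 0.10 of 0.

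Nucleotide and lipid receptors. P2ry12 is the ADP receptor by which microglial processes find injury. Its level in KO cords was lowest at 11.2, median 15.0 and highest 21.3 normalised CPM, against 16.4, 15.6, 13 and 11.6 in WT cords. The groups overlapped, with 2 of 9 KO libraries above every WT library, and the log2 fold change was 0.09 (SE 0.17). P2ry13, another ADP receptor, had 5.34 to 14.3 normalised CPM in KO and 6.10 to 8.72 in WT, with a log2 fold change of 0.49 (SE 0.24, edgeR unadjusted p = 0.0588). Gpr34, a receptor for lysophosphatidylserine, had a fold change of 0.63 (SE 0.29). P2ry6, the UDP receptor tied to phagocytosis and also used by other macrophages, had the largest of the 4 at 1.32 (SE 0.52), with 2.68 to 22.5 normalised CPM in KO against 3.54 to 3.89 in WT. In 8 of 9 KO cords P2ry6 exceeded every WT cord.

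Cytokine and chemokine receptors. Csf1r, the receptor for the survival factors Csf1 and Il34, was lowest at 101.7, median 166.8 and highest 427.5 normalised CPM in KO cords, against 111.4, 126.8, 114.5 and 107.4 in WT cords. KO replicates 2 and 9 were the 2 that did not exceed every WT library, and the log2 fold change was 0.97 (SE 0.37, edgeR unadjusted p = 0.0225, adjusted p = 0.302). Cx3cr1, the receptor for the neuronal ligand fractalkine, had a lowest value of 35.9, a median of 62.2 and a highest of 143.1 in KO, against 48.2, 52.2, 40.8 and 41.4 in WT. Its fold change was 0.81 (SE 0.37), with 6 of 9 KO libraries above every WT library. Of their ligands, Csf1 had 83.8 ± 27.6 normalised CPM in KO and 58.4 ± 4.64 in WT, with a log2 fold change of 0.52. Il34 had 16.2 ± 2.42 in KO and 16.2 ± 0.561 in WT. Cx3cl1, which encodes fractalkine, had 235.8 ± 30 in KO and 271.3 ± 12.5 in WT, a fold change of −0.20 (SE 0.09, edgeR unadjusted p = 0.0396), so receptor and ligand had opposite signs. Of 6 ligands listed, 2 were higher and 1 lower at an unadjusted p under 0.05, where 1670 and 1507 of 22174 tested genes were. The 2 higher ligands were Csf1 and Tgfb1, the source of TGF-beta (1.21, SE 0.50). Without KO replicates 7 and 9, 2 ligands were higher and 0 lower, and leaving out 1 library gave 0 to 3 higher and 0 to 1 lower.

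Surface proteins. Tmem119, a membrane protein used to mark microglia, was lowest at 14.3, median 26.7 and highest 53.4 normalised CPM in KO, against 20.5, 25.0, 18 and 18.9 in WT. Its fold change was 0.60 (SE 0.32, edgeR unadjusted p = 0.0865), with 6 KO libraries above every WT library and KO replicates 2 and 9 below all of them. Siglech, a lectin-like receptor, had 5.71 to 16.9 in KO against 6.51 to 10.3 in WT and a log2 fold change of 0.20 (SE 0.24). Slc2a5, a fructose carrier, had 3.93 to 6.74 in KO against 4.09 to 5.37 in WT and a fold change of 0.07 (SE 0.16). Siglech and Slc2a5 are 2 of the 6 members with a seed match, whose fold changes ran from 0.07 to 1.97 (Runx1). Whether a match goes with the fold change was not tested. Selplg, the P-selectin ligand, and Itgb5, an integrin subunit that neural cells also make, had fold changes of 0.45 and 0.54. Itgam, the integrin chain CD11b of myeloid cells, had 1.25 (SE 0.58). Fcrls, an Fc receptor-like molecule of mouse microglia, had the largest fold change of the group at 2.33 (SE 1.00). Its KO libraries did not rank as in most other members. Its highest values were 39.4 in KO replicate 4, 15.1 in the library labelled KO replicate 9 and 13.8 in KO replicate 6, while KO replicates 3 and 8 had 1.12 and 1.53, against 1.12, 1.79, 1.32 and 3.92 in WT. The coefficient of variation of Fcrls was 118.9% in KO and 63.2% in WT.

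Leukocyte signalling proteins. All 6 were at an unadjusted p under 0.05, with log2 fold changes of 1.17 to 2.36. Ptprc, the CD45 phosphatase on nearly all leukocytes, was lowest at 4.46, median 12.6 and highest 80.9 normalised CPM in KO cords, against 3.97, 3.86, 4.78 and 4.72 in WT cords. Every KO cord but replicate 2 exceeded every WT cord, and the fold change was 2.36 (SE 0.74, edgeR adjusted p = 0.292). Without KO replicate 7 the fold change was 1.80. Aif1, the calcium-binding protein Iba1 used to stain microglia and macrophages, was lowest at 2.34, median 4.47 and highest 12.4 in KO, against 2.79, 2.78, 2.61 and 2.35 in WT. Its fold change was 1.24 (SE 0.44, edgeR adjusted p = 0.292), again with every KO cord but replicate 2 above WT. Fcer1g, the signalling chain of Fc receptors, had 1.87 (SE 0.72). Fcgr3, a low-affinity receptor for IgG, had 1.26, Inpp5d, the lipid phosphatase SHIP1, 1.2 and Laptm5, a lysosomal membrane protein, 1.17.

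Transcription factors. Sall1, which in the myeloid lineage is known to mark microglia and which other cells of the nervous system can also make, was lowest at 62.1, median 70.0 and highest 84.7 normalised CPM in KO cords, against 70.9, 77.5, 65.0 and 67.4 in WT cords. The groups overlapped, and the log2 fold change was 0.06 (SE 0.09). Irf8, a factor of macrophage identity, was lowest at 7.54, median 16.2 and highest 43.8 in KO, against 6.68, 8, 6.10 and 6.75 in WT. It had the smallest p among the members, with a fold change of 1.67 (SE 0.47, edgeR unadjusted p = 0.00402, adjusted p = 0.292), and 8 of 9 KO libraries were above every WT library. Runx1, a factor of blood cell development, was lowest at 2.49, median 7.47 and highest 32.1 in KO, against 2.86, 2.75, 2.96 and 2.80 in WT. Its fold change was 1.97 (SE 0.59, edgeR adjusted p = 0.292). Spi1 had 1.61 (SE 0.65), and Ikzf1, a factor of lymphoid and myeloid cells, 1.09 (SE 0.44). Sall1 thus had the smallest fold change of the 5.

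Secreted proteins, enzymes and others. Ctss was lowest at 59.9, median 149.9 and highest 380.9 normalised CPM in KO cords, against 74.0, 72.8, 67.0 and 72.3 in WT cords. KO replicate 2 was below every WT library, and the library labelled KO replicate 9 exceeded the highest WT library by less than the rounding, with a log2 fold change of 1.40 (SE 0.48, edgeR adjusted p = 0.292). Rnase4, a secreted ribonuclease, was lowest at 6.27, median 15.7 and highest 29.3 in KO, against 8.10, 7.09, 9.50 and 8.61 in WT. The lowest value was that of the library labelled KO replicate 9, below every WT library, and the fold change was 1.01 (SE 0.34). Rnase4 shares exons with Ang, so its counts are uncertain. Cst3 was lowest at 602.3, median 701.4 and highest 880.3 in KO, against 707.2, 803.8, 722.5 and 743.0 in WT. It was the single member with a negative fold change, −0.04 (SE 0.10), and the groups overlapped. Olfml3, a secreted matrix protein, had 1.06 (SE 0.49), Ltc4s, which makes leukotriene C4, 0.63 (SE 0.35), and Crybb1, a crystallin that microglia also make, 0.23 (SE 0.31).

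**Figure D3:**
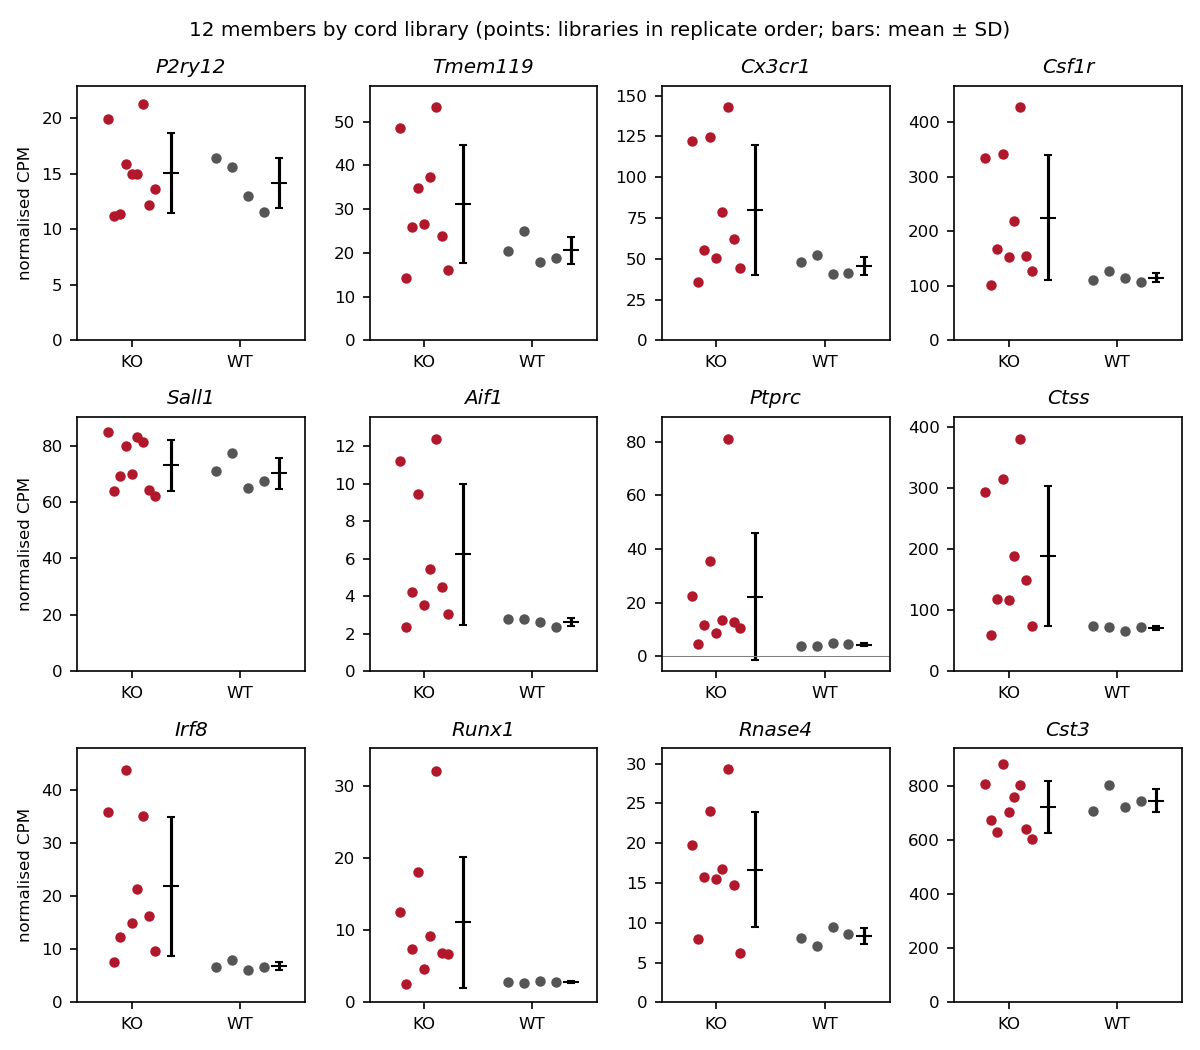
Normalised CPM (vertical linear axes) of 12 members in the 9 KO cords (left in each panel, replicates 1 to 9) and 4 WT cords (right, replicates 1 to 4); the bar beside each group is the mean ± SD. Ptprc, Irf8, Runx1 and Ctss have 8 of 9 KO points above all WT points, while P2ry12, Sall1 and Cst3 overlap.

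The KO cords differed more among themselves than the WT cords did. The coefficient of variation was larger in KO than in WT for all 30 members, where it was for 78.1% of tested genes. Its median over the members was 54.6% in KO and 11.8% in WT, and over all tested genes it was 19.1% in KO and 11.6% in WT. Without KO replicates 7 and 9 it was still larger in KO for all 30 members, where it was for 59.1% of tested genes, and the KO medians were 46.6% over the members and 14.3% over all tested genes. No member had all 9 KO libraries above all 4 WT libraries, or below them, where 0.501% and 0.807% of tested genes did. KO replicate 2 was left out next because the members were low in it, so the separation that follows is description, not a test. Without KO replicate 2, 9 members had every KO library above every WT library (1.97% of tested genes): Ptprc, Irf8, Runx1, Ctss, Inpp5d, Fcer1g, Ikzf1, P2ry6 and Aif1. The same 9 were the members with at least 8 of 9 KO libraries above (3.08% of tested genes). At least 7 of 9 KO libraries were above all WT libraries for 16 members, where 7.18% of tested genes had as many.

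KO replicate 7 had all 30 members above every WT library (32.7% of tested genes), and their median was 4.13 times the WT mean. KO replicates 1 and 4 had 29 and 26 members above (26.4% and 28.1% of genes), with medians of 2.89 and 2.93 times. In KO replicate 6 it was 26 members (22.2%) and 2.00 times. KO replicates 3, 5 and 8 had 21, 21 and 19 members above (25.0%, 20.7% and 23.9%), with medians of 1.28 to 1.38 times. The library labelled KO replicate 9 had 11 members above and 8 below every WT library (34.5% and 33.6%), with a median of 1.00 times. KO replicate 2 had 0 members above and 24 below (17.6% and 19.8%), with a median of 0.82 times. The labels give nothing that separates these KO libraries.

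**Figure D4:**
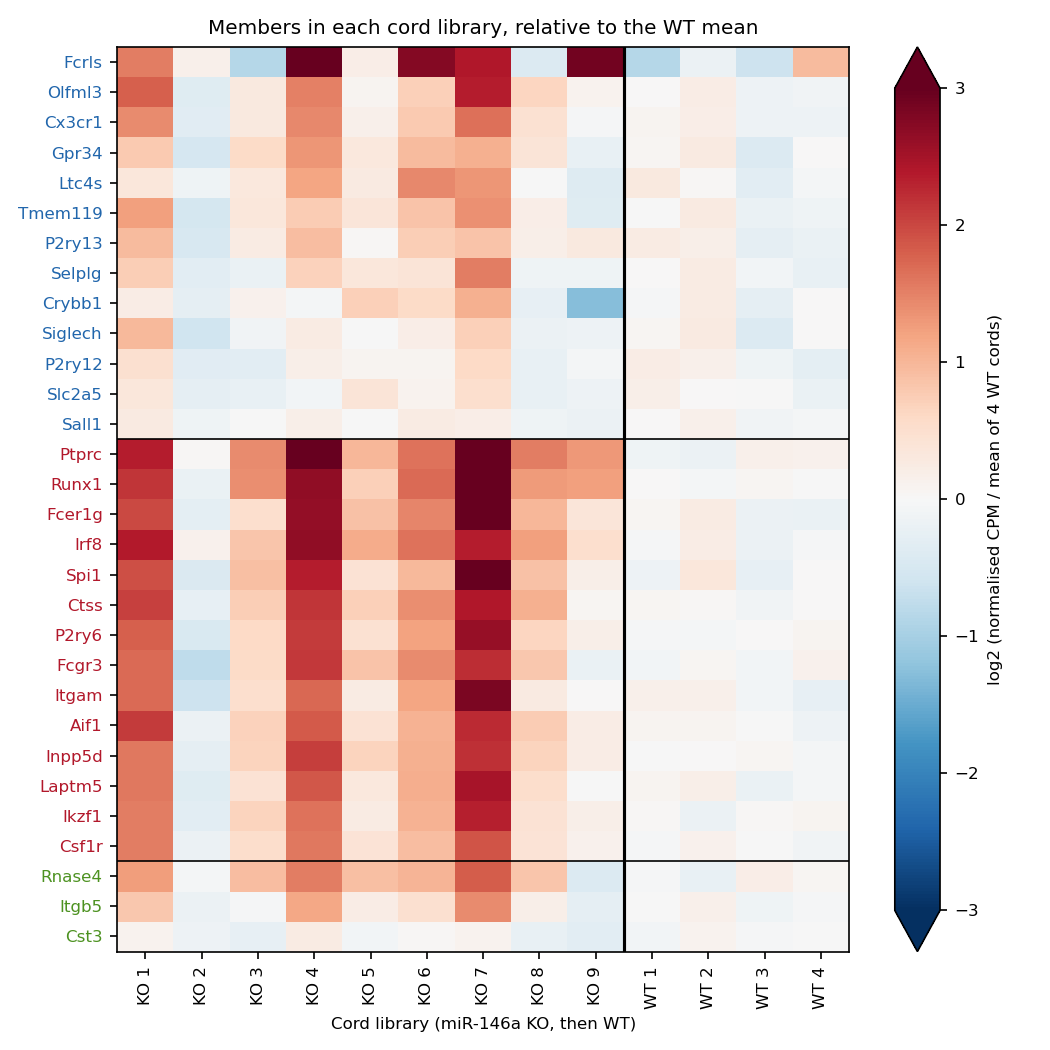
Log2 of normalised CPM over the mean of the 4 WT cords for each member (rows, by class and then fold change) in each KO cord (left of the line) and WT cord (right of it); red is above the WT mean, blue below, and the scale stops at 3 in both directions. KO replicates 1, 4 and 7 are red in nearly every row, KO replicate 2 is pale or blue, and the rows of P2ry12, Slc2a5, Sall1 and Cst3 stay pale in all 13 libraries.

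Leaving out single libraries changed the count of members at an unadjusted p under 0.05. It was 13 without KO replicate 4 (6.39% of genes were higher at that level), 13 without KO replicate 7 (7.75%), 14 without KO replicate 1 (7.06%) and 14 without KO replicate 6 (7.49%). It was 18 without KO replicate 3 (7.37%) or 8 (7.51%), 20 without KO replicate 5 (8.18%) or the library labelled KO replicate 9 (8.47%), and 21 without KO replicate 2 (9.18%). Without KO replicates 7 and 9 it was 15 (8.94%). Leaving out WT replicates 1, 2, 3 and 4 in turn gave 9, 11, 8 and 10, where 5.23%, 4.76%, 5.16% and 5.28% of genes were higher at that level. The median log2 fold change of the members was 0.82 without KO replicate 7, 1.13 without replicate 9 and 0.89 without both, and 29 members had a positive sign in each fit that left out 1 library or these 2.

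Levels relative to Csf1r describe the make-up of the set within a library. Csf1r was itself higher in most KO cords, so many genes stood lower against it, and 35.2% of tested genes had a ratio below every WT library in at least 8 of 9 KO libraries. Among the other 29 members, 6 did: P2ry12, Siglech, Selplg, Itgb5, Sall1 and Cst3. The ratio of P2ry12 to Csf1r was 0.0764 ± 0.0239 in KO cords and 0.123 ± 0.0173 in WT cords (SD, n = 9 and 4). That of Tmem119 was 0.144 ± 0.0234 in KO and 0.179 ± 0.0168 in WT, below every WT library in 7 of 9 KO libraries, which 58.5% of genes were at least as often. The ratio of Cx3cr1 was 0.356 ± 0.0227 in KO and 0.396 ± 0.0327 in WT. Without KO replicates 7 and 9, the KO ratios were 0.0758 ± 0.0220 for P2ry12, 0.149 ± 0.0243 for Tmem119 and 0.359 ± 0.0244 for Cx3cr1 (SD, n = 7). Of the 29, 9 members were below every WT library in at least 7 of 9 KO libraries. Both shares of members with a lowered ratio were thus under those of all genes.

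In the other direction, Irf8 had a ratio above every WT library in all 9 KO libraries, the library labelled KO replicate 9 and KO replicate 2 included, where 0.0586% of tested genes did. It was 0.0938 ± 0.0185 in KO and 0.0598 ± 0.00457 in WT. Ptprc and Runx1 were above in 8 of 9 (0.46% of genes had at least as many), with ratios of 0.0842 ± 0.0430 and 0.0450 ± 0.0147 in KO against 0.0379 ± 0.00613 and 0.0248 ± 0.00209 in WT. Ctss, Inpp5d and Fcer1g were above in 7 of 9 (0.911% of genes had at least as many). Without KO replicates 7 and 9, the KO ratios were 0.0978 ± 0.0193 for Irf8, 0.0693 ± 0.0193 for Ptprc and 0.0396 ± 0.00959 for Runx1 (SD, n = 7). These ratios carry no test, because the choice of Csf1r followed the fold changes.

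**Figure D5:**
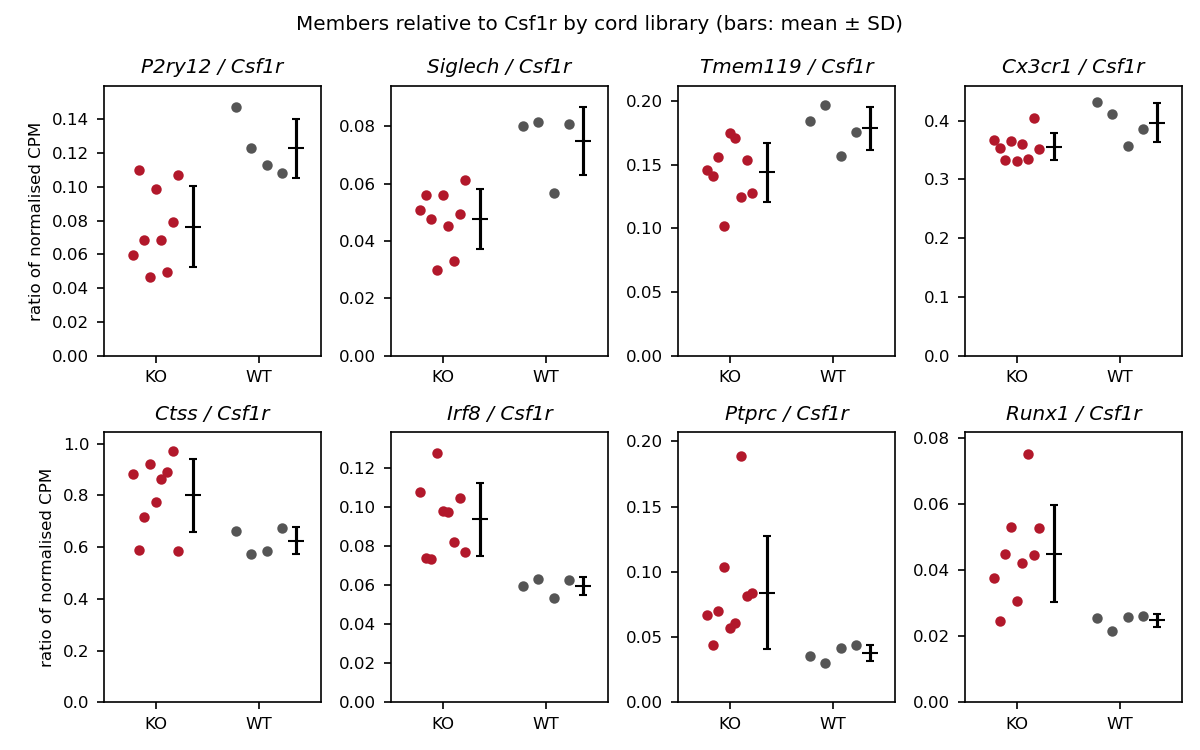
Ratio of normalised CPM of 8 members to that of Csf1r in the same library (vertical linear axes) for the 9 KO cords (left in each panel) and the 4 WT cords (right), with mean ± SD beside each group. The ratios of P2ry12 and Siglech are lower in most KO cords, that of Cx3cr1 differs little, and all 9 KO points of Irf8 lie above the WT points.

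A further 25 homeostatic genes that are not among the 30 were described in the same fit. Their median log2 fold change was 0.84. At an unadjusted p under 0.05, 17 were higher and 1 lower, where 1670 and 1507 of 22174 tested genes were. The median and the higher count of this list were 0.72 and 13 without KO replicates 7 and 9. On leaving out 1 WT library, 6 to 9 of the list were higher. The largest were C1qa (1.75) and C1qc (1.69), chains of complement C1q, and Hcls1 (1.74), a cytoskeletal adaptor of blood cells. The one lower gene was Bin1, a membrane-shaping protein that neurons and oligodendrocytes also make, with 300.5 ± 10.5 normalised CPM in KO and 336.2 ± 18 in WT. All 9 KO libraries were below all 4 WT libraries, as for 0.807% of tested genes. The fold change of Bin1 was −0.16 (SE 0.05, edgeR adjusted p = 0.292, DESeq2 adjusted p = 0.0394). All 20 listed genes of disease-associated microglia were tested, with a median of 1.65 and 17 higher at an unadjusted p under 0.05. These were 1.55 and 14 higher without KO replicates 7 and 9, and 10 to 12 were higher on leaving out 1 WT library. The largest were Gpnmb (4.64), Itgax (3.89) and Cst7 (3.56).

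Markers of border macrophages and of blood cells had positive medians in KO over WT cords. Whether they vary with the members from library to library was not tested. At an unadjusted p under 0.05, 7.53% of all tested genes were higher. Of 10 markers of border and perivascular macrophages 8 were tested, with a median log2 fold change of 1.64 and 6 at an unadjusted p under 0.05, led by Cd36 (4.18), Ms4a7 (4.08) and F13a1 (1.68). Their summed level was 7.73 to 83.1 normalised CPM in KO and 5.98 to 8.30 in WT. The median was 1.24 without KO replicate 7 and 1.31 without replicates 7 and 9, with 7 markers tested in each, and 4 to 7 were at that level on leaving out 1 library. Of 12 monocyte and neutrophil markers 10 were tested, with a median of 3.27 and 8 at that level, led by Ltf (3.97), Ngp (3.88) and S100a9 (3.82), and the sum was 2.88 to 89.2 in KO and 1.90 to 4.98 in WT. That count was 4 without KO replicate 3, 4 without KO replicate 7, 4 without replicates 7 and 9 (median 2.78), 2 with limma and 3 to 5 on leaving out 1 WT library. Of 12 lymphocyte markers 7 were tested, with a median of 1.42 and 3 at that level, led by Cd79b (3.57), and the sum was 1.83 to 13.5 in KO and 1.68 to 2.15 in WT. Without KO replicate 7 the median was 0.75 over 5 markers, of which 4 were positive, without replicates 7 and 9 it was 0.86 with 3 at that level, and leaving out 1 library gave 0.75 to 1.93. The 7 red blood cell markers had a median of 2.97 with 6 at that level, led by Slc4a1 (4.33), Alas2 (3.13) and Hbb-bt (3.07), and the sum was 36.7 to 703.7 in KO and 22.9 to 44.6 in WT. Without replicates 7 and 9 the median was 2.83, with 6 at that level. None of these markers was at 0 in every library of either cord group. Their part in the result was not tested.

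The same libraries did not rank the same way in every list. KO replicate 7 had the highest sum of border macrophage markers (83.1), of monocyte and neutrophil markers (89.2), of lymphocyte markers (13.5) and of red blood cell markers (703.7). KO replicate 4, with a median over the members close to that of KO replicate 1, had 22.4, 20.1, 3.48 and 206.3 in these lists, and KO replicate 1 had 14.9, 7.52, 5.61 and 282.0. KO replicate 3 had 73.8 for monocytes and neutrophils with members at 1.38 times the WT mean, while KO replicate 6, with members at 2.00 times, had 4.76, inside the WT range. KO replicate 5 had 496.7 for red blood cells with members at 1.28 times.

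Markers of the tissue's own cells differed less. At an unadjusted p under 0.05, 1670 of 22174 tested genes were higher and 1507 lower. Astrocyte markers had a median log2 fold change of 0.20, with 2 of 6 higher at an unadjusted p under 0.05, Gfap (1.04) and Slc1a3 (0.33), and Aqp4 at 0.24. Oligodendrocyte markers had −0.18, with 1 of 6 lower, Cnp (−0.23), beside Mag (−0.22). Neuron markers had −0.15, with 2 of 8 lower, Snap25 (−0.25) and Rbfox3 (−0.24), and Chat at −0.28. In the fit without KO replicates 7 and 9 these medians were 0.16, −0.19 and −0.06, with 2 higher, 2 lower and 2 lower. On leaving out 1 WT library, 0 to 1 astrocyte markers were higher, and 0 to 4 oligodendrocyte and 1 to 2 neuron markers were lower. Skeletal muscle markers, 5 of 6 tested, had a median of 6.51, led by Tnnt3 (7.92), Acta1 (6.71) and Ckm (6.51), with 0 at an unadjusted p under 0.05, and a median of −0.31 without KO replicate 7 and −0.44 without replicates 7 and 9. Connective tissue markers had 2.35, led by Col1a1 (3.07), Col3a1 (2.88) and Lum (2.35), also with 0 at that level. The median was 0.64 without KO replicate 7, 0.75 without replicates 7 and 9, 0.59 with DESeq2 and 0.67 with limma.

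The cultures show which members RNA of another source can reach. Comparing miR-146a LNA with control LNA, 12 of the 30 members passed the filter on low counts, 7 of these had a positive fold change (51.5% of tested genes did), and their median log2 fold change was 0.10, against 0.01 over all 19099 tested genes. edgeR called 2 of the 12, 1 lower and 1 higher, where 8.56% of tested genes were called, 6.16% lower and 2.4% higher. Runx1 had 12.0, 10.3 and 13.6 normalised CPM with miR-146a LNA, against 17.1, 20 and 20.5 with control LNA. It fell by 0.68 on the log2 scale (SE 0.11, edgeR adjusted p = 0.000908). The Runx1 values of the 2 culture groups did not overlap, but how often 3 and 3 libraries separate over all genes was not counted. Its sign was thus opposite to that in KO cords, a difference that was not tested.

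Rnase4 had 50.5, 52.0 and 53.4 with miR-146a LNA, against 44.0, 43.4 and 46.3 with control LNA, a log2 fold change of 0.22 (SE 0.06, edgeR adjusted p = 0.0400). Here too the groups did not overlap, again without a share over all genes beside it. The call was lost on leaving out any culture but miR-146a LNA replicate 3, with adjusted p of 0.0631 to 0.194. Of the other members with at least 1 normalised CPM in a culture group, log2 fold changes were 0.11 for Cst3, −0.07 for Itgb5, −0.38 for Sall1, 0.08 for Olfml3, 0.30 for Slc2a5 and −0.21 for Irf8, and none was called. Ptprc, with 21, 9 and 26 counts in the miR-146a LNA cultures and 6, 2 and 0 in the control LNA cultures, did not pass the filter on low counts. It was called higher in the fit without that filter and on leaving out miR-146a LNA replicate 2 or control LNA replicate 1 (adjusted p of 0.0131, 0.0261 and 0.0372). Cst3 had 146.2, 128.8 and 150.9 normalised CPM with miR-146a LNA, against 129.2, 134.1 and 131.5 with control LNA. Of the defining markers, P2ry13 and Siglech had 0 counts in all 6 cultures. P2ry12 and Crybb1 had 0 in the miR-146a LNA cultures, and Fcrls, Itgam and Spi1 had 0 in the control LNA cultures.

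Set against control LNA cultures, WT cords were higher in 28 of the 30 members and lower in 2, and all 30 were called by edgeR, where 85.4% of 21106 tested genes were called, 44.9% higher and 40.5% lower. The median log2 fold change of the members was 6.88, or 6.82 with members at 0 counts set at their bound, against 0.14 over all genes. Tissue, age, cell mixture and library preparation cannot be told apart in this comparison.

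Ctss had 9606 counts over the WT cords and 2 over the control cultures, a ratio of 5968 (95% counting interval 1652 to 49284). Siglech, P2ry13 and Spi1 had 0 counts in control cultures and were at least 481-fold, 412-fold and 262-fold higher in WT cords, taking 3 counts over the culture group as the floor. Cx3cr1 had 6137 counts in WT cords and 5 in control cultures, with a fitted log2 fold change of 10.36 (SE 0.24). At the other end were Irf8 (2.48), Cst3 (2.42) and Slc2a5 (1.71), and the 2 members lower in WT cords were Rnase4 (−2.50) and Runx1 (−2.83). Per length, Runx1 had 0.728 ± 0.0492 TPM in WT cords (SD, n = 4) and 6.06 ± 0.573 TPM in control cultures (SD, n = 3), and Rnase4 had 15.7 ± 2.18 TPM in WT cords and 103.3 ± 3.34 TPM in control cultures. Sall1 had 41.1 ± 3.33 TPM in WT cords and 4.54 ± 1.08 TPM in control cultures, so its RNA also occurred where Siglech and P2ry13 were at 0.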

How the data were processed

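Per the submitters' design notes, RNA was depleted of ribosomal RNA with RNase H, primed with random hexamers and sequenced as 150-base pairs, then aligned with STAR to Ensembl release 101 (GRCm38) and counted with featureCounts from unique, unambiguous reads; the sources used here give neither the strand setting nor the handling of duplicates. The deposited counts are raw whole numbers per gene and entered every test. The TPM values, computed by the authors, were used for levels per length.

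Tests were robust quasi-likelihood fits of edgeR 4.0.16 (R 4.3.3; TMM, default low-count filter, Benjamini-Hochberg over all genes, threshold 0.05), with SE from fold change and F; DESeq2 1.42.0, limma 3.58.1, scalings, filters and left-out libraries were alternatives. Scripts were tested on simulated data with the same spread in both groups. That checks their workings, not the fit at the unequal spread of the members in KO and WT cords. Symbols matched 55141 of 55487 genes (99.38%, GENCODE M21, which also gave the 3′ UTRs). Cord replicate numbers follow accession order and only name libraries. No replicate pair matched within sampling noise (smallest chi-square per degree of freedom 6.42). Over a library, 3 counts are 0.0758 to 0.1065 CPM in cords and 0.0458 to 0.0738 in cultures, covering counting error only. Members and lists were chosen with earlier results of these data known. Per-library values are given for 8 core members (P2ry12, Tmem119, Cx3cr1, Csf1r, Sall1, Aif1, Ptprc, Ctss) and up to 5 members with the smallest p on each side; other lists name up to 3 members with at least 1 normalised CPM and the largest fold changes, of which 1 is not reported here. P2ry13, P2ry6, Siglech, Slc2a5, Fcrls and Bin1 are named with their ranges besides, chosen after their values were seen.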

Additional observations from a re-analysis of the deposited data

Results flagged for a closer look

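Single libraries stood apart from the rest of their group in 6 of the 60 member and cord group combinations examined by Dixon's criterion for an outlying value, which chance meets in about 1 in 20 groups. Members measured in the same libraries are not independent, and the rate over all tested genes was not counted, so the 6 are not compared with that rate. KO replicate 4 had 39.4 normalised CPM of Fcrls, against 1.12 to 15.1 in the other KO cords. The other 5 were all KO replicate 7. It had 91.2 of Selplg against 25.5 to 52.7, 25.9 of Itgam against 2.37 to 12.0, 80.9 of Ptprc against 4.46 to 35.6, 86.0 of Fcer1g against 5.56 to 42.7 and 45.1 of Spi1 against 3.45 to 23.9. The same library held the highest Acta1 and Col1a1 and the highest sums of the border macrophage, monocyte and neutrophil, lymphocyte and red blood cell lists, whose part was not tested. Without it, the log2 fold change was 0.24 for Selplg, against 0.45 with all 9 KO libraries, 0.85 for Itgam against 1.25, 1.80 for Ptprc against 2.36, 1.36 for Fcer1g against 1.87 and 1.17 for Spi1 against 1.61. The edgeR unadjusted p of Itgam was 0.0627 without it and 0.0494 with it.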

How the results depend on the processing

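In the KO and WT cords, genes called numbered 381 with DESeq2, 3 with limma, 8 without KO replicates 7 and 9 together, and 0 to 2 on leaving out 1 library; members called numbered 4 with DESeq2 and 0 under every other alternative run. With limma the median log2 fold change of the members was 0.71, against 1.03 with edgeR, and 27 members were positive, against 29. The leukocyte-shared median was 0.93 with limma, against 1.29, and the microglia-enriched median 0.36, against 0.49. P2ry12 (−0.03) and Slc2a5 (−0.02) turned negative with limma. The skeletal muscle median turned to −0.30 with DESeq2, −0.05 with limma, −0.31 without KO replicate 7 and −0.44 without replicates 7 and 9; leaving out 1 library gave −0.31 to 6.98. The cause was not tested, except that leaving out the library shows what it holds. In cultures, leaving out 1 library gave 778 (without control replicate 2) to 1985 genes called, with 1059 without control replicate 1, and 1 to 2 members, of which Runx1 was called each time, Rnase4 without miR-146a LNA replicate 3, and Ptprc without miR-146a LNA replicate 2 or control replicate 1. Replicate numbers did not pair the cultures (correlations of deviations 0.0304, −0.109 and 0.00604); with a replicate block 1793 genes and 1 member were called, Rnase4 being lost (adjusted p = 0.052). Without a low-count filter 28 members were tested with a median of 0.33 and 3 were called, Ptprc (2.84) beside Rnase4 and Runx1. Signs turned on leaving out 1 library for Csf1r (−0.69 to 0.14, miR-146a LNA replicate 3), Itgb5 (−0.16 to 0.05, control replicate 3), Irf8 (−0.50 to 0.16, control replicate 3) and Olfml3 (−0.09 to 0.23, miR-146a LNA replicate 3 or control replicate 2), none of them called. For WT cords against control cultures, a fold threshold of 4 left 5870 genes called, and the median of the members was 7.13 with a minimum mean of 1 CPM and 6.55 to 7.14 on leaving out 1 library. Members at few counts in cultures limit these folds.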
